A study of Mus musculus with 4 samples.

Results

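The Id family (Id1, Id2, Id3 and Id4) was described in single-cell libraries of mouse spermatogonial cultures treated with extracellular vesicles. The 4 members were found by gene symbol among the 32285 genes counted, and each symbol matched 1 gene. Spermatogonia had been sorted for Thy1 from the testes of 3 mice at postnatal day 6 and grown on STO feeder cells, a mouse embryonic fibroblast line. The vehicle cultures received PBS, and the EV cultures received 1 μg/ml of vesicles from testes of postnatal day 7 mice, both for 3 days. Counts of vehicle 1, vehicle 2 and EV 1 were used, while the expression of EV 2 was not analysed here, so the EV arm had no replicate check and no test was made between arms. The labels call the libraries of an arm biological replicates, and the study describes them as independent samples.

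Id proteins are helix-loop-helix proteins that lack the basic region with which their partners contact DNA. They pair with E proteins such as the products of Tcf3, Tcf4 and Tcf12, and so keep these from forming DNA-binding dimers with tissue-specific partners. Their genes are well-known direct targets of bone morphogenetic protein (BMP) signalling through Smad proteins. In the testis, Id4 is widely used as a marker of spermatogonial stem cells.

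The members share a coding stretch that covers much of the helix-loop-helix part. It is shown because it is the feature that defines the family and bears on whether sequence reads could be assigned to the wrong member. The following 120 bases of coding sequence, 5′ to 3′ on each gene's own strand, were the ungapped in-frame stretch of the first coding exon, aligned to Id1, with the most bases shared by all 4 members, and capitals mark the 69 shared positions.
Id1: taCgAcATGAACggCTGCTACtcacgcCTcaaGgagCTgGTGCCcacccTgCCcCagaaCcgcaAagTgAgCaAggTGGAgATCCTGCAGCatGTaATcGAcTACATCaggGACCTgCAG
Id2: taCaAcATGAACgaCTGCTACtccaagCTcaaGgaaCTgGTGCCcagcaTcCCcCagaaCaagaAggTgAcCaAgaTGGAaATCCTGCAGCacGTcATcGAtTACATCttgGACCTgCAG
Id3: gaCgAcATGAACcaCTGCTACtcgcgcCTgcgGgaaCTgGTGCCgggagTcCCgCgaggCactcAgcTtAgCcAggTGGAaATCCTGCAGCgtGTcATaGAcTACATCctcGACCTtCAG
Id4: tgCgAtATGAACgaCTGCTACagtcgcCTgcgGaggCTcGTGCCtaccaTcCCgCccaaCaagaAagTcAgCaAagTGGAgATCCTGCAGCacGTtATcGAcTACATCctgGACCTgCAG
In the GENCODE vM21 annotation of GRCm38 (mm10), the Id1 stretch lies on the plus strand at chr2:152736518-152736637, in exon 1 of Id1 (ENSMUSG00000042745). That of Id2 (ENSMUSG00000020644) lies on the minus strand at chr12:25095783-25095902, in exon 2 of 4 of the transcript used. Those of Id3 (ENSMUSG00000007872) and Id4 (ENSMUSG00000021379) lie on the plus strand in exon 1, at chr4:136144002-136144121 and chr13:48261693-48261812. Identity over the stretch was highest between Id1 and Id2, at 81.7%, and lowest for Id3 with Id1 and with Id4, at 70.8% each. The longest run of identical bases between the transcripts of any pair was 19 bases, between Id2 and Id3. Id4 is overlapped on the opposite strand by A330033J07Rik and Gm49291, which had 14 or fewer UMIs in any library over all kept cells.

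A total of 21679 cells of the 3 libraries were kept. A cell was placed in the germ class if it held at least 2 UMIs (unique molecular identifiers, each standing for 1 captured molecule) of Dazl, Tex15, Stk31 and Epcam and more of these than of Col1a1, Col1a2, Sparc and Dcn, and in the feeder class by the reverse rule. The germ class made up 53.5% and 55.3% of the cells of the vehicle libraries and 4.73% of those of EV 1, where it numbered 226 cells with 324434 UMIs, against 4421 and 4780 cells with 9455720 and 11063898 UMIs. The feeder class numbered 2346, 2477 and 2510 cells with 9502535, 10777506 and 6796472 UMIs. The other cells, 16.0% and 18.1% of the vehicle libraries and 42.7% of EV 1, had median depths of 1177 to 1406.5 UMIs and did not meet either rule. Libraries shared 11 to 22 cell barcodes. Of other markers, 12 germ cell genes that the rule did not use summed to between 749 and 1008 CPM (UMIs in each 1000000 UMIs of the class) in the germ class and to between 10.9 and 31.7 CPM in the feeder class. The Sertoli cell list of 7 genes summed to 398 to 418 CPM in the feeder class, of which Sox9 gave 273 to 297 CPM, and to 49.0 to 83.2 CPM in the germ class. Its defining gene Amh was at 0 in all libraries of the germ class and in 2 of 3 of the feeder class. The Leydig cell list of 5 genes summed to at most 7.32 CPM in any class and library, with Hsd3b1 at 0 throughout, and the lists of 5 genes each for peritubular myoid cells, macrophages and endothelium summed to at most 27.5, 22.8 and 24.7 CPM.

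In the vehicle cultures the 4 members were divided unequally between germ and feeder cells. Id1 stood at 120.1 and 121.5 CPM in the feeder class of vehicle 1 and vehicle 2 and at 36.2 and 34.0 CPM in the germ class. Id2 stood at 31.5 and 30.1 CPM in feeder cells and at 2.12 and 2.26 CPM in germ cells. Both genes were therefore several times higher in feeder cells in each of the vehicle libraries. Id3 stood at 58.9 and 58.2 CPM in feeder cells and at 55.7 and 51.5 CPM in germ cells. Id4, the stem cell marker, stood at 13.7 and 15.2 CPM in feeder cells and at 14.1 and 16.4 CPM in germ cells. Neither of these genes was divided between the classes by more than a small fraction of its level.

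**Figure D1:**
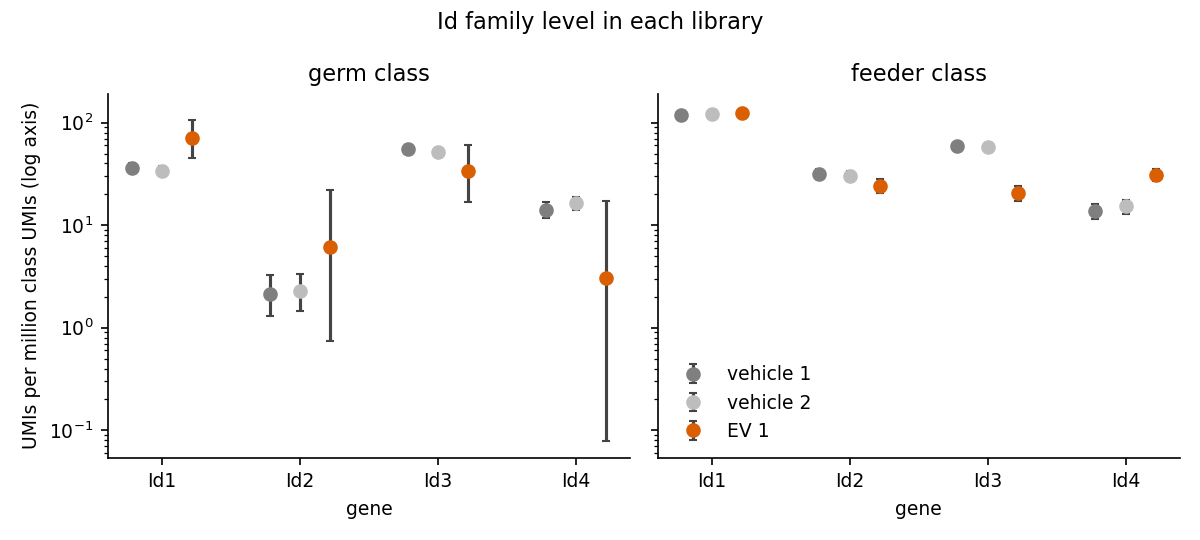
Level of each member, as CPM on a log axis, in the germ class (left) and the feeder class (right) of vehicle 1, vehicle 2 and EV 1. Points are single libraries and bars are exact 95% Poisson intervals, which cover counting error only. The vehicle libraries lie close together for every member, EV 1 lies below them for Id3 and above them for Id4 in the feeder class, and its germ values rest on 1 to 23 UMIs.

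The germ class was compared with the feeder class within libraries by edgeR's quasi-likelihood test on UMIs summed per library and class, with the library as a block and Benjamini-Hochberg adjustment over 15651 genes. At an adjusted p under 0.05, 40.0% of all genes were higher and 41.6% were lower in the germ class, so a call in either direction was common. All 4 members were lower in the germ class in this fit, although single libraries did not all show this for Id3 and Id4. The log2 difference was -2.08 ± 0.13 (SE) for Id1 (edgeR adjusted p = 2.07e-11) and -4.11 ± 0.17 for Id2 (edgeR adjusted p = 5.29e-14). It was -0.47 ± 0.09 for Id3 (edgeR adjusted p = 9.05e-05) and -0.40 ± 0.18 for Id4 (edgeR adjusted p = 0.0439). In CPM, Id3 in germ cells of EV 1 stood at 1.65 (0.803 to 3.04) of its feeder level, and Id4 in vehicle 1 and vehicle 2 at 1.03 and 1.08. Neither gene passed the threshold with DESeq2 (adjusted p = 0.0803 and 0.107) or without the library block (edgeR adjusted p = 0.500 and 0.0563), and both calls depended on the scaling. TMM factors, which correct for differences in makeup, put the median log2 difference of all genes at -0.03, against 0.35 with library totals, an alternative chosen after the data were seen. With library totals the log2 difference was -0.11 for Id3 (edgeR adjusted p = 0.223) and -0.015 for Id4 (edgeR adjusted p = 0.935). On that scale 7933 genes were called higher and 5246 lower in the germ class, against 6264 and 6514 with TMM. Without vehicle 1 or without vehicle 2 the call of Id3 was also lost, with an edgeR adjusted p of 0.299 and 0.377.

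Free RNA from feeder cells could reach germ cell droplets, and its scale was taken from 12 fibroblast genes that the class rule did not use. Their summed level in germ cells was 11.7% and 9.85% of that in feeder cells in the vehicle libraries and 19.7% in EV 1. Id2 in germ cells was at 0.0672 and 0.0752 of its feeder level in the vehicle libraries, below that share. Of the 12 fibroblast genes, 8 in vehicle 1 and 6 in vehicle 2 lay higher than Id2. No expression of Id2 in germ cells is read from these values, and the source of its UMIs was not tested. Id1 was at 0.301 (95% interval 0.266 to 0.340) and 0.280 (0.249 to 0.314) of its feeder level, above that share, although Col5a1 alone of the 12 fibroblast genes lay higher still, at up to 61.5% of its feeder level. Id3 was at 0.946 (0.838 to 1.07) and 0.886 (0.789 to 0.994), and Id4 at 1.03 (0.801 to 1.32) and 1.08 (0.865 to 1.34), far above it. These intervals are exact and cover counting error only.

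The question posed by the design is how the vesicles changed the cultures. In the feeder class, Id3 was lower and Id4 was higher in EV 1, while Id1 differed little. Id3 stood at 58.9 CPM in vehicle 1, 58.2 CPM in vehicle 2 and 20.6 CPM in EV 1, beside a vehicle mean of 58.6 ± 0.534 CPM (SD, n = 2). After adding 0.5 UMI, its log2 ratio between EV 1 and the mean of the vehicle libraries was -1.50, and its ratio to the pooled vehicle UMIs was 0.352 (0.293 to 0.420). Id4 stood at 13.7, 15.2 and 31.0 CPM, beside a vehicle mean of 14.4 ± 1.09 CPM (SD, n = 2), with a log2 ratio of 1.10 and a ratio of 2.14 (1.79 to 2.56). For both genes the EV library lay outside the vehicle pair by far more than the pair's own spread, since vehicle 2 was at 0.987 (0.879 to 1.11) of vehicle 1 for Id3 and at 1.11 (0.878 to 1.41) for Id4. Id1 stood at 120.1, 121.5 and 124.0 CPM, a ratio of 1.03 (0.948 to 1.11). Id2 stood at 31.5, 30.1 and 24.3 CPM, a ratio of 0.790 (0.662 to 0.940).

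To read these values against other genes, a gene was counted as past the fold if it had at least 200 UMIs in the class, differed at least 1.5-fold from the mean of the vehicle libraries, and had its EV 1 level farther from the nearer vehicle library than the vehicle libraries were from each other. In the feeder class, Id4 was the 1 member past the fold in the higher direction, where 4.48% of 9704 genes were, and Id3 was the 1 member in the lower direction, where 10.4% were. The median log2 ratio of all these genes was -0.13. Of them, 0.917% had a log2 ratio below that of Id3 and 1.03% had one above that of Id4. With a 2-fold limit both members were still past the fold.

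In the germ class Id1 was higher in EV 1, on 23 UMIs. The values of Id3 and Id4 rested on 11 UMIs and 1 UMI, and they moved with the class rule inside their counting intervals. Id1 stood at 36.2, 34.0 and 70.9 CPM in vehicle 1, vehicle 2 and EV 1, a log2 ratio of 1.04 and a ratio of 2.03 (1.28 to 3.06), with 23 UMIs in EV 1. Id3 stood at 55.7, 51.5 and 33.9 CPM, a log2 ratio of -0.60 and a ratio of 0.634 (0.316 to 1.14), with 11 UMIs in EV 1. Id4 stood at 14.1, 16.4 and 3.08 CPM, a log2 ratio of -1.72 and a ratio of 0.201 (0.00508 to 1.13), with 1 UMI in EV 1. Id2 stood at 2.12, 2.26 and 6.16 CPM, beside a feeder-marker share of its feeder level of 3.67, 2.96 and 4.78 CPM, and the EV 1 value rests on 2 UMIs, so no difference was read from it. With a class rule of at least 1 UMI the log2 ratio was -0.10 for Id3 and -0.54 for Id4, both inside the 1.5-fold limit, and with the stricter rule, which takes cells with at least 3 UMIs of the germ genes and none of the feeder genes, it was -0.24 and -0.62. For Id1 it was 0.94 and 1.47 under these rules. The intervals of Id3 and Id4 include 1, so a difference of these genes was not detectable at this depth. Id1 was past the fold in the higher direction, as were 13.9% of 9676 genes, and Id3 and Id4 in the lower direction, as were 12.1%. With TMM factors, which shifted the median log2 ratio of all germ genes from 0.01 to -0.14, 882 genes were past the fold in the higher and 1776 in the lower direction, against 1343 and 1172, and the same members were past it.

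The share of feeder markers in the germ class was higher in EV 1 than in the vehicle libraries, as given above, so the levels were also computed with that share of the feeder level taken off, an alternative chosen after the data were seen. Id1 in germ cells then stood at 22.2, 22.0 and 46.5 CPM, which is 2.10-fold higher in EV 1. Id3 then stood at 48.9, 45.8 and 29.9 CPM. Id4 in EV 1 came out below 0.

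**Figure D2:**
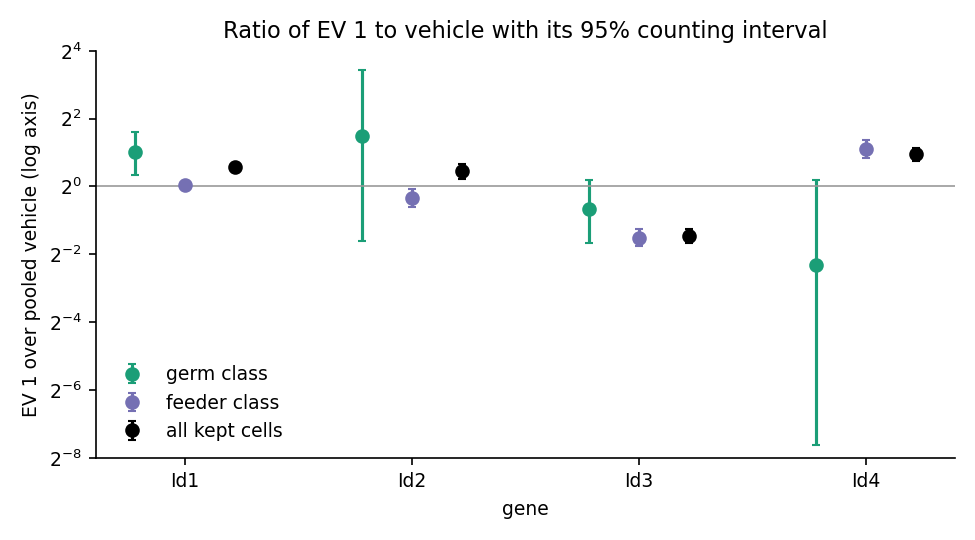
Ratio of EV 1 to the pooled vehicle libraries for each member, on a log axis, in the germ class, the feeder class and all kept cells. Points are ratios of CPM and bars are exact 95% counting intervals. Id3 lies below 1 and Id4 above 1 with narrow intervals in feeder cells and in all cells, and the germ interval of Id4 runs from 0.00508 to 1.13.

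Over the sum of all kept cells, that is of the droplets left after the filters and the removal of doublets, Id4 stood at 13.6, 15.6 and 28.2 CPM, a ratio of 1.92 (1.67 to 2.21). Id3 stood at 57.1, 53.7 and 20.3 CPM, a ratio of 0.366 (0.316 to 0.423). Id1 stood at 76.9, 74.9 and 112.1 CPM, a ratio of 1.48 (1.38 to 1.58), and Id2 at 16.2, 15.9 and 21.9 CPM, a ratio of 1.37 (1.17 to 1.60). The cells in neither class gave like ratios, 0.365 (0.264 to 0.495) for Id3 and 1.94 (1.35 to 2.80) for Id4. Such sums mix level with cell makeup. Vehicle class levels combined in the proportions of EV 1 gave 100.1 CPM for Id1, 24.6 for Id2, 55.6 for Id3 and 13.9 for Id4, beside vehicle means of 75.9, 16.0, 55.4 and 14.6 CPM. EV 1 class levels combined in the vehicle proportions gave 96.5 CPM for Id1, 15.5 for Id2, 26.3 for Id3 and 17.7 for Id4, beside 112.1, 21.9, 20.3 and 28.2 CPM in EV 1 itself. Id3 was thus well below its vehicle mean in either makeup of EV 1 levels, while Id4 was much nearer to its vehicle mean with the EV 1 levels in the vehicle makeup, where the germ level rests on 1 UMI. Of the Id4 UMIs, 45.9% and 48.3% fell in germ cells in the vehicle libraries, and 1 of 283 did in EV 1. For Id3 this share was 43.4% and 44.1% in the vehicle libraries and 5.42% in EV 1.

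The sum of the 4 members in the feeder class was somewhat lower in EV 1, and its makeup differed. It stood at 224.2 and 225.0 CPM in the vehicle libraries and at 200.0 CPM in EV 1, a ratio of 0.890 (0.837 to 0.946), outside the vehicle pair by more than the pair's spread. In each of the vehicle libraries Id1 gave most of these UMIs (53.6% and 54.0%), followed by Id3 (26.3% and 25.9%), Id2 (14.0% and 13.4%) and Id4 (6.10% and 6.76%). In EV 1 Id1 gave 62.0%, Id4 15.5% (Wilson 95% interval 13.7 to 17.5%), Id2 12.1% and Id3 10.3% (8.80 to 12.0%), so that Id4 stood above Id3, the reverse of the vehicle order. In germ cells of the vehicle libraries Id3 came first, with 51.6% and 49.5% of the family's UMIs, before Id1 with 33.5% and 32.6%. A UMI count carries no division by transcript length, and capture may differ between genes.

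**Figure D3:**
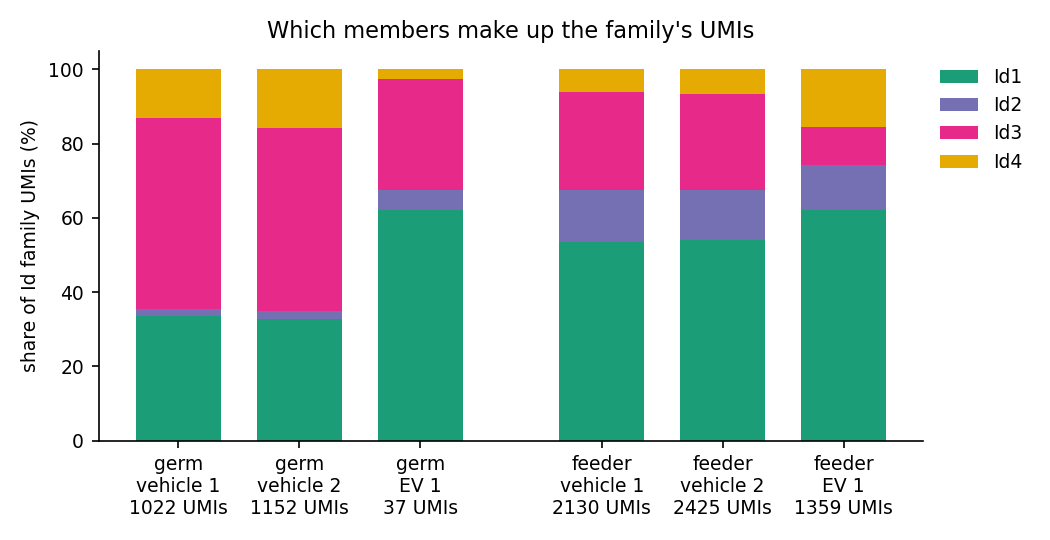
Share of the family's UMIs given by each member, in percent, in the germ and feeder classes of each library, with the family's UMIs under each bar. In the feeder class Id3 is at 26.3% and 25.9% in the vehicle libraries and at 10.3% in EV 1, and Id4 is at 6.10% and 6.76% and at 15.5%. The germ bar of EV 1 rests on 37 UMIs.

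Feeder cells of EV 1 differed from those of the vehicle libraries in their states, and the ratios were therefore also taken within states, called in cells thinned to 1000 UMIs. Cells with at least 5 UMIs of Mt1 and Mt2, metal-binding metallothioneins, numbered 499 of 2260 and 515 of 2422 in the vehicle libraries and 1434 of 2324 in EV 1. Id3 was lower in EV 1 both among these cells, at 0.496 (0.308 to 0.791) of pooled vehicle, and outside them, at 0.274 (0.151 to 0.461). Id4 was higher among them, at 2.88 (1.58 to 5.59), and stood at 1.74 (0.961 to 3.04) outside them. Counting all UMIs of the same cells, a choice made after the data were seen, gave 0.503 (0.391 to 0.645) and 0.268 (0.190 to 0.367) for Id3, and 2.03 (1.53 to 2.73) and 1.82 (1.34 to 2.43) for Id4. The differences of Id3 and Id4 were thus present in both kinds of feeder cell on all UMIs. Cycling and interferon-response states were also called, but EV 1 had 11 and 15 such feeder cells, with 1 UMI of Id3 in each state and 5 and 0 UMIs of Id4, and the ratios within them were 0.393 (0.00969 to 2.32) and 0.366 (0.00907 to 2.14) for Id3 and 6.78 (1.85 to 21.2) and 0 (0 to 8.71) for Id4. Id1 was at 1.09 (0.970 to 1.22) of vehicle among metallothionein cells and at 0.776 (0.672 to 0.894) outside them on this count. The difference between the ratios was not tested for any member.

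**Figure D4:**
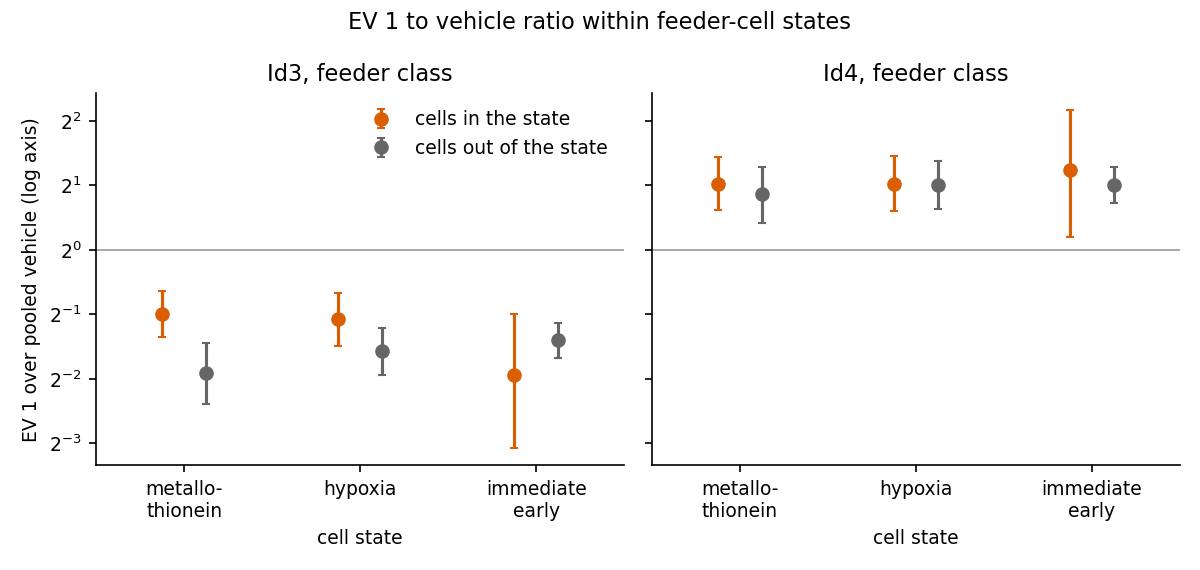
Ratio of EV 1 to the pooled vehicle libraries for Id3 (left) and Id4 (right), on a log axis, in feeder cells inside and outside 3 states called from metallothionein, hypoxia-response and immediate-early genes, counting all UMIs of the cells. Bars are exact 95% counting intervals. All 6 plotted ratios of Id3 lie below 1 and all 6 of Id4 above 1, with no plotted interval reaching 1, and the cycling and interferon states, with 11 and 15 cells in EV 1, are not drawn.

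Within vehicle feeder cells, Id3 was also compared between states. It stood at 42.8 and 47.6 CPM in metallothionein cells and at 64.0 and 61.2 CPM in the other cells of vehicle 1 and vehicle 2, ratios of 0.668 (0.526 to 0.840) and 0.777 (0.626 to 0.958) on all UMIs. In cells with at least 2 UMIs of the hypoxia-response genes Hilpda, Ndrg1, Ankrd37, Bnip3 and Egln3 the ratios were 0.533 (0.414 to 0.677) and 0.730 (0.593 to 0.893). In cells with a UMI of the immediate-early genes Fos, Fosb, Egr1 or Nr4a1 they were 1.31 (1.08 to 1.58) and 1.32 (1.11 to 1.57). These counts of all UMIs were chosen after the data were seen. At the fixed depth of 1000 UMIs per cell the ratios lay on the same side of 1, at 0.743 (0.457 to 1.16) and 0.760 (0.463 to 1.20) for metallothionein, 0.642 (0.395 to 1.00) and 0.768 (0.484 to 1.18) for hypoxia, and 1.29 (0.866 to 1.88) and 1.59 (1.08 to 2.30) for immediate-early genes. Of these 6 intervals, that of immediate-early genes in vehicle 2 alone left out 1, so the differences of Id3 between states rest on the deeper count. In EV 1 the ratios on all UMIs were 1.36 (0.933 to 2.02) for metallothionein, 0.892 (0.628 to 1.26) for hypoxia and 0.905 (0.405 to 1.77) for immediate-early genes, and at the fixed depth 1.37 (0.721 to 2.71), 1.02 (0.555 to 1.88) and 1.81 (0.629 to 4.28). All 6 of these intervals include 1, and the difference between libraries was not tested.

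Germ cells of the vehicle libraries were divided by markers of the stem state and of differentiation. Cells with a UMI of Stra8, which is induced by retinoic acid, or Kit, the receptor gained on differentiation, numbered 737 of 4274 and 849 of 4668. Id3 in these cells stood at 0.695 (0.461 to 1.02) and 0.622 (0.410 to 0.914) of its level in the other germ cells, or 0.739 (0.565 to 0.954) and 0.633 (0.486 to 0.813) on all UMIs. Id4 stood at 0.609 (0.252 to 1.28) and 0.326 (0.103 to 0.798), or 0.867 (0.510 to 1.40) and 0.521 (0.306 to 0.840) on all UMIs. Id3 was lower in cells with Stra8 or Kit in both libraries on all UMIs, while for Id4 the interval left out 1 in vehicle 2 alone. Cells with a UMI of Gfra1, the GDNF receptor of stem spermatogonia, did not differ detectably in Id4, at 1.15 (0.715 to 1.80) and 0.902 (0.588 to 1.34) of the other cells on all UMIs. Id1 in Gfra1 cells was at 0.747 (0.533 to 1.02) and 0.723 (0.527 to 0.975).

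At a fixed depth of 1000 UMIs per cell, few cells showed a UMI of any member. Cells with fewer UMIs were left out, 2.22% to 7.41% of each feeder class, 3.33% and 2.34% of the vehicle germ classes and 21.2% of that of EV 1. Id3 was found in 5.58% and 4.95% of feeder cells of the vehicle libraries and in 2.02% of those of EV 1, and Id4 in 1.19%, 1.32% and 2.93%. Before thinning the shares were 17.3%, 18.1% and 4.90% for Id3 and 5.07%, 5.97% and 7.37% for Id4, at median depths of 3620.5, 3899 and 2447.5 UMIs per cell. At least 1 member was found in 18.7%, 19.4% and 18.6% of feeder cells and in 9.90%, 9.30% and 11.8% of germ cells at the fixed depth. A second member was found in 1.16% to 1.37% of feeder cells, 1 cell had 3 members, and no cell had 4. In whole cells, 3, 5 and 1 feeder cells of vehicle 1, vehicle 2 and EV 1 held all 4 members.

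Among germ cells of the vehicle libraries, Id1 and Id3 were found in the same cell more often than the product of their shares under some settings and not detectably so under others. At the fixed depth of 1000 UMIs, 15 cells held both in each vehicle library, which was 2.01 (1.12 to 3.31) and 2.12 (1.19 to 3.50) times the product. In whole cells, with the product taken within 10 equal bins of the cells by UMI total, an alternative chosen after the data were seen, 53 and 59 cells held both, 1.64 (1.23 to 2.15) and 1.68 (1.28 to 2.16) times the product. In germ cells with at least 3 germ marker UMIs and no UMI of the 4 feeder genes of the class rule, these ratios were 1.58 (1.08 to 2.23) and 1.80 (1.31 to 2.41). With the same stricter classes at the fixed depth, vehicle 1 stood at 1.55 (0.622 to 3.19) and vehicle 2 at 2.30 (1.15 to 4.11). At 2000 UMIs per cell the ratios were 1.64 (0.999 to 2.53) and 1.46 (0.936 to 2.17), and at 500 UMIs per cell 2.10 (0.572 to 5.37) and 0.952 (0.115 to 3.44). The product rule assumes that cells of a depth are alike, and no test was made, since cells of 1 library are not replicates. At the fixed depth the interval of Id2 with Id4 also lay above 1 in vehicle 1, on 2 cells. In whole germ cells the intervals of the other 5 pairs included 1 in both vehicle libraries, and Id4 was found with Id3 in 14 and 23 cells, 1.00 (0.549 to 1.69) and 1.21 (0.767 to 1.82) times the product. In whole feeder cells, none of the 6 pairs in the 3 libraries had an interval that left out 1, and Id1 with Id3 stood at 1.15 (0.992 to 1.33), 1.14 (0.991 to 1.30) and 1.27 (0.936 to 1.68). With stricter feeder classes (at least 3 feeder UMIs and none of the germ genes), Id3 with Id4 in vehicle 1 stood at 0.540 (0.279 to 0.944), and vehicle 2 and EV 1 at 0.915 (0.597 to 1.34) and 0.708 (0.285 to 1.46).

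**Figure D5:**
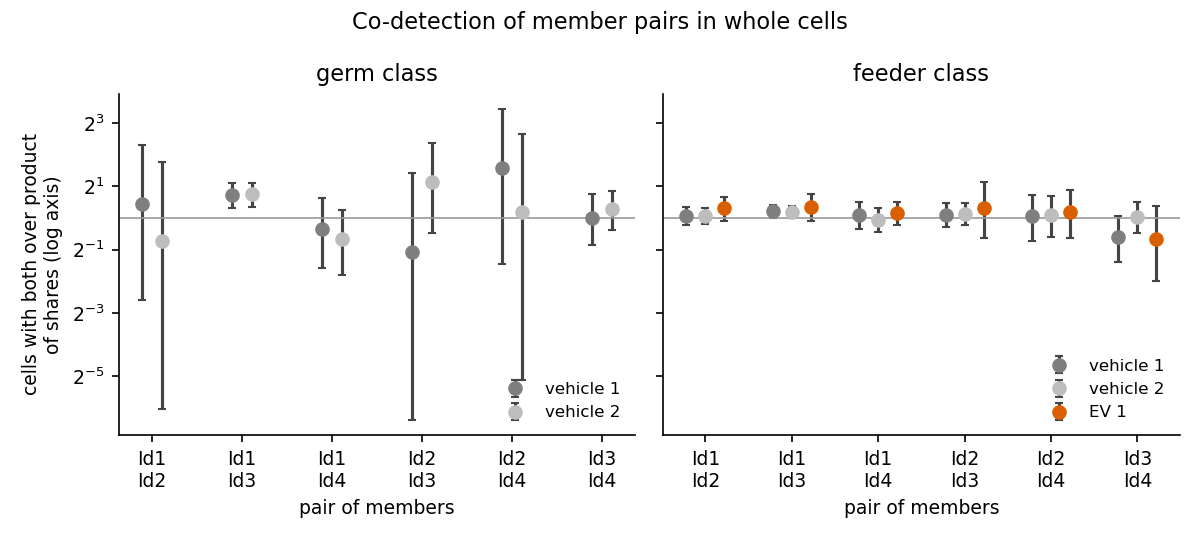
Number of whole cells that held both members of a pair over the number given by the product of their shares within 10 equal bins of the cells by UMI total, on a log axis, for vehicle germ cells (left) and feeder cells (right). Bars are exact 95% Poisson intervals of the number of cells with both. Id1 with Id3 in germ cells, at 1.64 and 1.68, is the pair whose intervals lie above 1 in both vehicle libraries.

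No gene among those ranked followed a member closely from cell to cell. Only genes found in at least 5% of the cells of each library used were ranked. Over feeder cells at the fixed depth, the gene most like Id1 among 2901 such genes was Fth1. Its Pearson correlations were 0.0830 to 0.118 in the 3 libraries, and 4 ribosomal protein genes came next. The highest for Id3 was Slpi (0.0528 to 0.0561) and for Id4 Magoh (0.0334 to 0.0365). Over germ cells of the vehicle libraries the highest for Id3 was Rasgrp2 (0.0635 and 0.0675), and Ret, a GDNF co-receptor, was the third for Id4 (0.0292 and 0.0298). These correlations are weak, share library and depth, and are no finding.

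The partners of Id proteins and the genes of the pathway that controls them were read from fixed lists. Of the E proteins, Tcf3 was past the fold in feeder cells, at 51.7, 59.0 and 36.0 CPM with a ratio of 0.649 (0.563 to 0.745) and a log2 ratio of -0.62, or -0.55 and inside the limit with TMM factors, where 10.4% of all feeder genes were lower. Tcf4 stood at 265, 268 and 178 CPM and Tcf12 at 214, 237 and 159 CPM, with log2 ratios of -0.58 and -0.50, which did not reach the limit. The 3 E proteins thus had a median log2 ratio of -0.58 in feeder cells beside -0.13 for all genes, and of -0.16 in germ cells beside 0.01, where none was past the fold. Of the other transcription factors of the helix-loop-helix class, Bhlhe40 and Bhlhe41, repressors of the circadian and hypoxia responses, were past the fold in the higher direction in both classes, as were 4.48% of all feeder genes and 13.9% of all germ genes. Bhlhe40 stood at 48.6, 51.4 and 104.6 CPM in feeder cells and at 24.1, 22.9 and 52.4 CPM in germ cells. The feeder-marker share of its feeder level was 5.67, 5.06 and 20.6 CPM. Bhlhe41 stood at 19.0, 18.9 and 43.2 CPM in germ cells, beside a share of 4.49, 4.02 and 12.1 CPM. Both genes lay above that share in each library, and its part in their germ differences was not tested. Hes1 and Hes6, also measured in both classes, were not past the fold, although Hes1 in feeder cells was with TMM factors (log2 ratio 0.58, or 0.65 with TMM). Neither was any of the 2 feeder or 4 germ members of the tissue-specific list with enough UMIs. With TMM factors, however, Twist1 in germ cells was past it in the lower direction (log2 ratio -0.53, or -0.68 with TMM).

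Of the BMP and TGFβ ligands, none of the 7 with at least 200 UMIs in feeder cells or the 3 in germ cells was past the fold. In feeder cells, where 4.48% of all genes were past it in the higher and 10.4% in the lower direction, lists of so few genes would hold 0 or 1 such gene at the share of all genes, and the counts that follow are read as values of single genes. Inhba, an activin subunit, stood at 46.2, 51.1 and 70.3 CPM in feeder cells, a log2 ratio of 0.53 that reached the limit with TMM factors (0.60), and Bmp6 at 70.7, 76.2 and 74.0 CPM in germ cells, a log2 ratio of 0.04. Of the receptors and co-receptors in feeder cells, Rgmb, a BMP co-receptor, was lower at 86.4, 88.1 and 51.4 CPM, and Tgfbr3, or betaglycan, stood at 495, 516 and 330 CPM, past the fold with library totals (log2 ratio -0.62) but not with TMM factors (-0.55), while the BMP receptors Bmpr1a and Bmpr2 differed by log2 ratios of -0.09 and -0.03. None of the 5 Smads measured in feeder cells was past the fold, and their median log2 ratio was -0.05. Smad7, the inhibitory Smad that is induced by the pathway as the Id genes are, was past the fold in the higher direction at 24.5, 25.3 and 57.5 CPM, a ratio of 2.31 (2.02 to 2.64). Of the 5 secreted inhibitors measured, Fst, or follistatin, was lower at 28.7, 28.8 and 17.2 CPM and Grem1 was not past the fold at 149, 153 and 167 CPM.

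In germ cells of EV 1 the genes of the BMP and TGFβ lists rested on 3 to 46 UMIs each, and 13.9% and 12.1% of all genes were past the fold. Bmpr2 (70.8, 71.1 and 117 CPM), Rgmb, Tgfbr2, Smad3, Grem1 and Bambi were past it in the higher direction and Smad1 (36.0, 35.6 and 21.6 CPM) in the lower, and of these the counting intervals of Bmpr2 (1.16 to 2.28) and Grem1 (1.07 to 4.22) left out 1. Grem1 in germ cells, at 14.2, 13.2 and 30.8 CPM, lay below the feeder-marker share of its feeder level in each library (17.4, 15.1 and 32.8 CPM), so no expression is read from it. Smad3 and Tgfbr2 lay little above it, with Smad3 at 11.0, 12.2 and 18.5 CPM beside 8.71, 7.89 and 13.9 CPM and Tgfbr2 at 12.2, 12.7 and 18.5 CPM beside 9.14, 8.06 and 13.6 CPM, so no difference in expression is read from them. Bmpr2, Rgmb, Bambi and Smad1 were above that share in each library. With TMM factors Bambi and Tgfbr2 were no longer past the fold, while Smad4 was past it in the lower direction (log2 ratio -0.51, or -0.66 with TMM). Among inhibitors of cyclin-dependent kinases, which Id proteins are known to act on through E proteins, Cdkn1a was past the fold in germ cells at 61.4, 57.2 and 207 CPM. The feeder-marker share of its feeder level was 108.5, 103 and 196 CPM. The vehicle values lay below that share and that of EV 1 close to it, so no difference in expression is read from Cdkn1a. In feeder cells Cdkn1a differed by a log2 ratio of 0.01, at 931, 1045 and 996 CPM. Cdkn2c was lower in feeder cells at 29.6, 32.9 and 18.8 CPM. Of the 7 genes of the stem list measured in germ cells, Zbtb16 (169, 173 and 46.2 CPM) and Gfra1 (205, 217 and 98.6 CPM) were lower in EV 1, with ratios of 0.270 (0.151 to 0.446) and 0.466 (0.319 to 0.660). Lhx1 and Bcl6b were also past the fold, lower and higher, but on 9 and 10 UMIs in EV 1, with intervals that include 1 (0.268 to 1.12 and 0.826 to 3.23). Ret was past the fold in the lower direction with TMM factors only (log2 ratio -0.49, or -0.64 with TMM). Of the 5 differentiation genes, Stra8 was lower at 175, 172 and 83.2 CPM. The feeder-marker share of germ cells was 19.7% in EV 1 beside 9.85% and 11.7%, and its part in these differences was not tested.

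The lists also differed between the classes within libraries, read against the 40.0% of genes higher and 41.6% lower in germ cells. Of the 3 E proteins, Tcf3 was higher (log2 difference 0.68 ± 0.10 SE, edgeR adjusted p = 3.10e-06) and Tcf4 lower in germ cells (-3.13 ± 0.16, edgeR adjusted p = 7.49e-13), and Tcf12 did not pass the test. All 10 stem genes tested were higher, as were 4 of 7 differentiation genes, with 3 lower. Of the tissue-specific helix-loop-helix factors 4 of 6 were higher and 2 lower, and of the Hes and Hey group 2 of 5 were higher and 3 lower. Of the BMP ligands 4 of 6 were higher and 2 lower, and of the TGFβ ligands 1 of 5 was higher and 3 were lower. Of the 9 BMP receptors and co-receptors, 3 were higher and 5 lower, and of the 6 Smads 2 were higher, Smad2 and Smad4, and 4 lower. Of the 4 TGFβ receptors 1 was higher and 3 lower, of the 8 secreted inhibitors 1 was higher and 5 lower, and of the 6 other BMP targets 3 were higher and 1 lower. Of the 6 inhibitors of cyclin-dependent kinases 2 were higher, Cdkn1c and Cdkn2a, and 4 lower.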

How the data were processed

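The files deposited by the authors hold unnormalized counts of UMIs for each gene in each barcode of 10x Genomics libraries. According to the study's methods and the submitters' processing notes, reads were aligned to mm10 with GENCODE vM23 and counted with Cell Ranger 7.0.1. Gene positions and sequences came from GENCODE vM21, another release of the same build. Groups came from sample titles. For EV 2 a list of 6794 barcodes was used and expression was not analysed here. Total counts were 23686047, 27444797 and 10793232 per library.

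Cells with more than 400 and fewer than 4000 genes and under 10% mitochondrial UMIs were kept, and the highest Scrublet scores (scanpy 1.11.5) were removed as doublets at 0.8% per 1000 cells. The authors used DoubletFinder. Counts were summed per library and class. Poisson, conditional ratio and Wilson intervals (95%) cover counting error only. No test was made between arms with 1 EV library. The study compared the arms within cell clusters with Seurat's FindMarkers at its default settings. Germ and feeder sums were compared with edgeR 4.0.16 (R 4.3.3), glmQLFit and glmQLFTest, after filterByExpr and without the 8 genes of the class rule, and with DESeq2 1.42.0 as an alternative. The test was checked on simulated data with 200 changed genes and no effect of the library. Far more genes than that were called between the classes in the data. The check therefore does not bear on the scaling on which the calls of Id3 and Id4 depended. The library block pairs both classes of 1 library. With this block, the p-values rest on how the difference between germ and feeder cells varied among the 3 libraries. These comprise the vehicle libraries and 1 EV library, so they are not replicates of 1 condition. Any departure of the EV library in this difference counts as part of that spread. Named genes were the 4 members, genes of the fixed lists with their values, chiefly those past the fold, and the 5 genes most correlated with each member. The members and lists were chosen with earlier results of these data known.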

Additional observations from a re-analysis of the deposited data

Results flagged for a closer look

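The difference of EV 1 from each vehicle library had opposite signs in the classes for Id4. The log2 ratio was 1.10 in feeder cells and -1.72 in germ cells, where EV 1 had 1 UMI. For Id2 the values were -0.34 in feeder cells and 1.78 in germ cells. The latter sets 2 UMIs of EV 1 against a vehicle level below the feeder-marker share, so no effect in germ cells is read from it. The difference between the classes was not tested for either gene, since the EV arm had 1 library, and neither germ interval left out 1. No group had enough samples to look for a library that stands apart.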

How the results depend on the processing

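For EV 1 against vehicle, feeder log2 ratios ranged from -1.54 to -1.39 for Id3 and from 1.03 to 1.19 for Id4. Germ counting intervals are too wide to show stability: Id4 ranged from -2.30 to -0.54, Id3 from -0.75 to -0.10, Id2 from 0.34 to 1.83 and Id1 from 0.89 to 1.47. A mean over cells, each scaled to 1 total, gave 0.76 in place of 0.56 for the log2 ratio of Id1 over all kept cells. No paired analysis was possible because the expression of EV 2 was not analysed here, which leaves 1 shared replicate number. Between germ and feeder cells, every alternative kept the calls and directions of Id1 and Id2. Id3 was no longer past the threshold with DESeq2 (log2 difference -0.45, adjusted p = 0.0803) or with library totals (-0.11), and without vehicle 1 or vehicle 2, where all leave-outs gave -0.53 to -0.32. Id4 was no longer past it with DESeq2 (-0.96, adjusted p = 0.107) or with library totals (-0.015), and kept its call in every leave-out (-0.87 to -0.32). With no replicate block, that is without pairing the classes by library, Id3 stood at -0.25 (edgeR adjusted p = 0.500) and Id4 at -0.85 (edgeR adjusted p = 0.0563). The cause was not tested. Genes past the fold numbered 435 higher and 1005 lower in feeder cells, 807 and 1676 with a minimum of 50 UMIs, 530 and 799 with TMM factors, which put the median log2 ratio at -0.06 in place of -0.13, and 137 and 274 at 2-fold. In germ cells they numbered 1343 and 1172, then 3070 and 1919 with 50 UMIs, 882 and 1776 with TMM factors, and 400 and 425 at 2-fold, where Id3 was no longer past the limit. Id1 with Id3 in germ cells of vehicle 2 stood at 0.952 times the product at 500 UMIs per cell, with an interval of 0.115 to 3.44, and at 2000 UMIs per cell the germ intervals of both vehicle libraries included 1 while that of feeder cells of vehicle 2 did not (1.35, 1.02 to 1.75). The 226 germ cells of EV 1 limit every germ value there.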
